A study of Bos taurus with 60 samples.

Results

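Mature microRNAs (miRNAs) were compared between the proximal jejunum and the duodenum, neighbouring stretches of the small intestine, in cattle. Chosen by tissue label, the libraries were 10 of proximal jejunum and 10 of duodenum, 20 of the 60 in the series. Each is a small RNA library from a snap-frozen intestinal biopsy of Bos taurus, taken after death. Letters A to J in the sample titles pair the regions and were taken as the animals. Letters A to E are cattle labelled negative for fecal E. coli O157 (non-shedders), and letters F to J are labelled as shedding it in large numbers in the feces (super-shedders). Either status gives 5 libraries per region, no other treatment is labelled, and age, sex and breed are not labelled. The comparison asks how miRNA levels change from one gut region to the next within an animal, with both statuses together.

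miRNAs are short RNAs that, loaded on Argonaute proteins, lower the stability and translation of mRNAs that pair with their seed. The duodenum receives bile and pancreatic juice and neutralises gastric acid, and the jejunum is the main site of nutrient absorption. Cells of both keep a record of their place along the gut in the HOX gene clusters, whose genes are switched on in order from front to back, and the miR-10 and miR-196 genes lie inside those clusters. A biopsy mixes epithelium, muscle, connective tissue, nerve and blood cells, so fewer cells of a type and less miRNA per cell cannot be told apart here.

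The duodenum libraries held 951834 to 3433050 counts and the proximal jejunum libraries 659627 to 5961690, and the regions did not differ in total (exact paired sign-flip test, two-sided p = 0.742). Detected miRNAs numbered 390.6 ± 13.7 (SD, n = 10) in duodenum and 393.8 ± 20.6 (SD, n = 10) in proximal jejunum (p = 0.672 by the same exact test). Of 608 miRNA names, 47 had 0 counts in all 20 libraries, and 235 passed the low-count filter and were tested. Levels are in CPM, the read count as a share of a library total, on a common scale for all libraries, with totals adjusted by the trimmed mean of M values (TMM). Fold changes are proximal jejunum over duodenum, and adjusted p-values come from the quasi-likelihood test of edgeR with the letter as a block.

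The libraries of letter I, a super-shedder, stood apart. Its duodenum library held 8622 CPM of miR-122, the liver miRNA, against at most 10.2 CPM in the other duodenum libraries. It also held 1034 CPM of the epithelial list, the miR-200 and miR-183 families that mark epithelial cells, whose median over duodenum was 14141 CPM. Its jejunum library held 84.4 CPM of that list against a median of 6972 CPM, and 2644 CPM of the enterocyte miRNAs miR-192, miR-194 and miR-215 against a median of 163845 CPM. The smooth muscle pair miR-143 and miR-145 summed to 1067790 CPM there, the highest of the 20 libraries. The TMM adjustment multiplied the total of that jejunum library by 0.557, which raises all its levels, so this sum exceeds the adjusted total. miR-196b, which in this series is abundant in the large intestine, stood at 285 CPM in the jejunum library of letter I and at 179 CPM in that of letter B, a non-shedder, against a jejunum median of 3.52 CPM. In both regions, then, some markers of the labelled tissue were low or foreign markers were high in letter I, and the main results are given with and without it. Its duodenum library was not low in every such marker, since its miR-192 stood at 146864 CPM against a duodenum median of 123893 CPM. Mostly through miR-192, its enterocyte list summed to 150638 CPM against a median of 156569 CPM. The other members of that list were below their duodenum medians there. miR-215 was at 924 CPM, the lowest of the duodenum libraries, against 29175 CPM, and miR-194 at 2850 CPM against 5645 CPM. Letter I was singled out by levels in these same libraries, those of the epithelial list among them. Smaller p-values and more calls without it are thus no independent support.

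**Figure D1:**
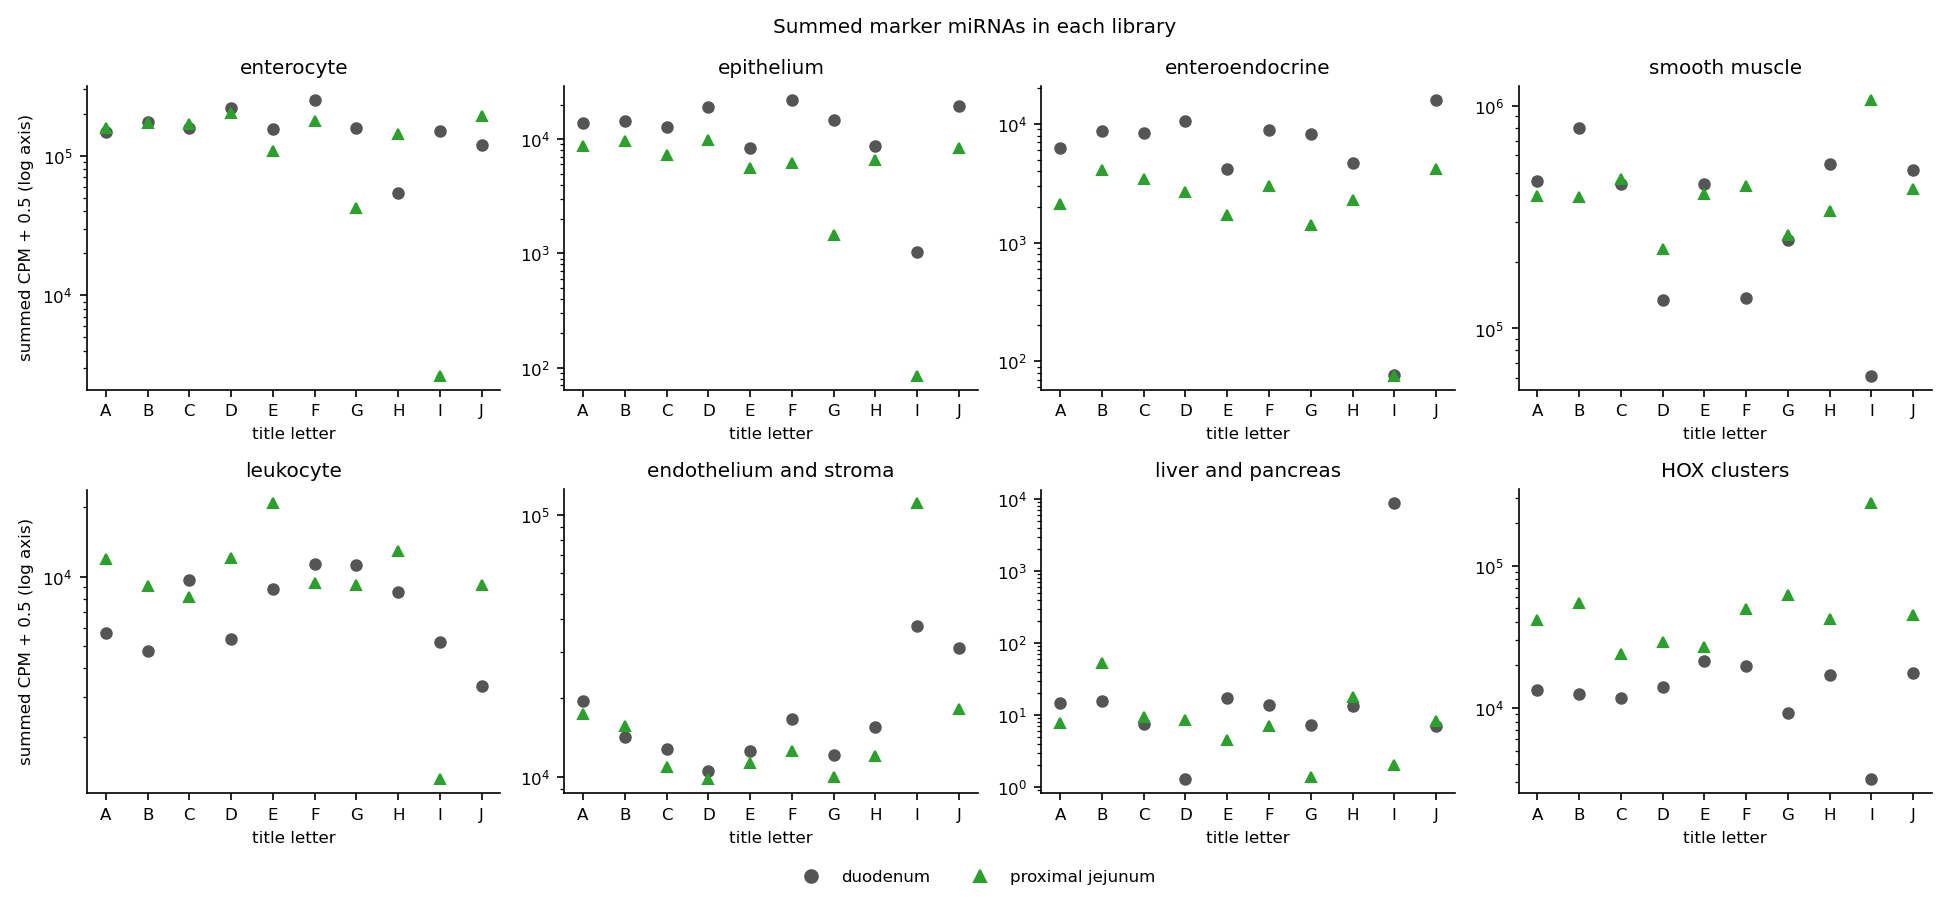
Summed levels of 8 marker miRNA lists (TMM-scaled CPM plus an offset of 0.5, log axis) for each title letter, with circles for duodenum and triangles for proximal jejunum. Both libraries of letter I lie lowest for the epithelial list, at 1034 CPM in duodenum and 84.4 CPM in proximal jejunum.

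Between the regions 13 of 235 miRNAs passed the threshold of 0.05 (5.53%), 5 of them higher in proximal jejunum (2.13%) and 8 lower (3.4%). miR-10a, from the HOXB cluster, was 12.4-fold higher in proximal jejunum. miR-132, miR-181a, miR-181b and miR-138 rose from 1.78-fold to 2.68-fold. The endocrine miRNAs miR-375 and miR-153, the epithelial miR-141 and miR-200a, and miR-148a, miR-224, miR-3431 and miR-369-3p fell, from 1.77-fold to 3.94-fold. Over all 235 miRNAs the median log2 fold change was 0.01, and 66 had an unadjusted p under 0.05.

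How many miRNAs passed depended on letter I. Without it 52 of 237 passed (21.9%), 29 higher (12.2%) and 23 lower (9.7%), and these include all 13. Leaving out letter A, B, C or H left 7 calls, and leaving out D or J left 6. miR-10a, miR-132, miR-181a, miR-375, miR-141 and miR-148a passed whichever letter was left out, the other 7 did not in at least 1 of these fits. Leaving out both B and I gave 38 calls (16.1%). Without the letter as a block 7 passed (2.98%), and miR-138, miR-141, miR-200a, miR-224, miR-369-3p and miR-375 were lost. DESeq2 called 43 (18.3%), and a fit over all 60 libraries 20 of 275 (7.27%). Under scaling to total counts 7 passed, and the calls of miR-138, miR-148a, miR-181a, miR-181b, miR-200a, miR-224 and miR-369-3p were lost, with none of the 13 changing direction.

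miR-10a, encoded between HOXB4 and HOXB5 in the RefSeq gene table of assembly ARS-UCD2.0, had the largest fold change of the 13. In duodenum it ran from 1262 to 7293 CPM with a median of 1932 CPM, and in proximal jejunum from 13774 to 155601 CPM with a median of 24803 CPM. The groups did not overlap, and among the 235 miRNAs that held for 1 (0.426%). Its log2 fold change was 3.64 ± 0.44 (SE, n = 10 letters; adjusted p = 5.86e-04), higher in 10 of 10 letters. The highest jejunum value was that of letter I; without it the highest was 33896 CPM and the log2 fold change 3.43 ± 0.32 (adjusted p = 2.96e-05).

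miR-10b, from the HOXD cluster, differs from miR-10a by little in sequence and shares its seed. It ran from 1127 to 15958 CPM in duodenum (median 12011 CPM) and from 9218 to 118733 CPM in proximal jejunum (median 16270 CPM). The groups overlapped, 7 of 10 letters were higher, and the log2 fold change of 0.73 ± 0.58 did not pass (adjusted p = 0.441). The lowest duodenum and the highest jejunum value were those of letter I, and without it the log2 fold change was 0.46 (adjusted p = 0.201). The balance within the pair also differed between the libraries of the regions. miR-10a made up 20.7% ± 16.7 (SD, n = 10) of the counts of both in duodenum and 57.1% ± 8.31 (SD, n = 10) in proximal jejunum. The share was higher in jejunum in 9 letters and lower in letter I, where it went from 64.1% to 56.7%. These shares were not tested, and how reads matching both miRNAs were counted is not given in the sources used here.

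miR-196a comes from genes within HOXB9 and between HOXC9 and HOXC10, further toward the rear end of the clusters. It was too low to be tested in the main comparison, with 7 counts summed over the duodenum libraries and 413 over the jejunum libraries. Levels ran from 0 to 1.27 CPM in duodenum (median 0.193 CPM) and from 1.81 to 82.6 CPM in proximal jejunum (median 11.7 CPM). The groups did not overlap, which held for 2 of the 561 miRNAs detected in these libraries (0.357%), and all 10 letters were higher in jejunum. The lowest jejunum value, that of letter I, is below what 3 counts are worth in its own duodenum library (1.97 CPM), so at that end the separation was not detectable at this depth. When no low-count filter was used, 18 of 561 miRNAs passed (3.21%), and miR-196a was among them with a log2 fold change of 5.44 ± 0.56 (adjusted p = 4.36e-06), a size that depends on how near-zero counts are handled.

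miR-196b, from the HOXA cluster between HOXA9 and HOXA10, gave 19 counts in duodenum and 1507 in proximal jejunum, most of them in the jejunum libraries of letters B and I. Its values were 0 to 4.03 CPM in duodenum (median 0.716 CPM) and 0 to 285 CPM in proximal jejunum (median 3.52 CPM). It was higher in 7 of 10 letters and did not pass without the filter (3.51 ± 1.04, adjusted p = 0.0761). Of the 5 names on the HOX list 2 were tested in the main comparison, and 1 passed, miR-10a, against 2.13% of all miRNAs higher. The summed HOX list, nearly all of it miR-10a and miR-10b, was higher in jejunum in 10 of 10 letters.

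**Figure D2:**
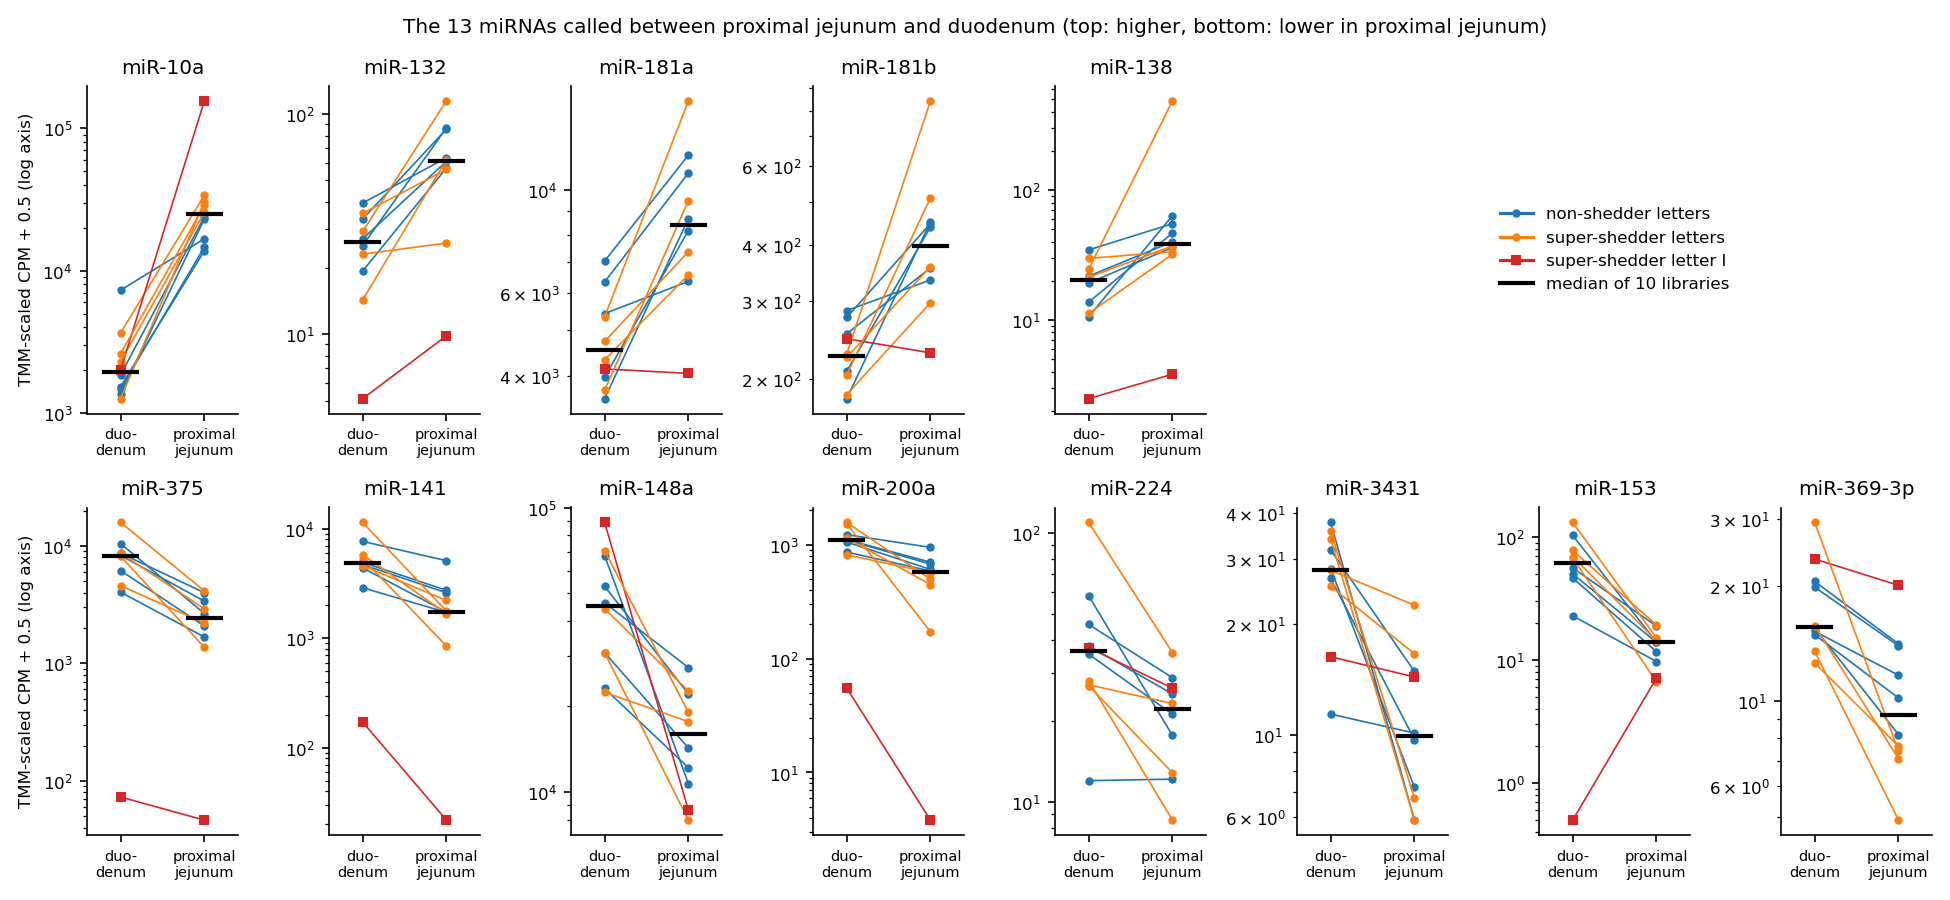
Levels of the 13 called miRNAs (TMM-scaled CPM plus an offset of 0.5, log axis) in duodenum and proximal jejunum, with a line joining the libraries of each letter, colours for shedding status, red squares for letter I and a bar at the median of 10. For miR-10a all jejunum points, from 13774 CPM, lie above all duodenum points, up to 7293 CPM.

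The endocrine list holds miR-375, miR-7 and miR-153, which are abundant in pancreatic islets and in hormone-secreting cells. Of its 3 members 2 fell, against 3.4% of all miRNAs. miR-375 ran from 72.4 to 15875 CPM in duodenum, with a median of 8238 CPM. In proximal jejunum it ran from 45.8 to 4144 CPM, with a median of 2431 CPM. The lowest library of each region was that of letter I; without it the duodenum started at 4043 CPM, so the ranges still overlapped slightly. The log2 fold change was -1.49 ± 0.20 (adjusted p = 7.32e-04), lower in 10 of 10 letters, and -1.55 ± 0.15 without letter I (adjusted p = 2.96e-05).

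miR-153 is encoded within PTPRN and PTPRN2, genes for membrane proteins of hormone-containing granules. It ran from 0 to 131 CPM in duodenum (median 61.2 CPM) and from 6.15 to 18.7 CPM in proximal jejunum (median 13.4 CPM). The 0 was that of the duodenum library of letter I, where 3 counts would be 1.97 CPM. The log2 fold change was -1.98 ± 0.50 (adjusted p = 0.0369), lower in 9 of 10 letters. Without letter I it was -2.22 ± 0.22 (adjusted p = 3.26e-05), and the groups no longer overlapped, at 22.4 CPM or more in duodenum against at most 18.7 CPM. With 9 against 9 that held for 4 of 237 miRNAs (1.69%), namely miR-10a, miR-153, miR-181b and miR-196a. Of these, miR-196a passed the low-count filter only through its jejunum libraries, with at most 1.27 CPM in duodenum. Its separation in that fit thus follows in part from the filter. Without any other letter miR-153 missed the threshold, with adjusted p up to 0.0771.

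miR-7, the remaining endocrine member, ran from 3.95 to 106 CPM in duodenum (median 50.8 CPM) and from 13.5 to 58.0 CPM in proximal jejunum (median 33.0 CPM). The regions overlapped widely. Its log2 fold change of -0.47 ± 0.36 did not pass (adjusted p = 0.415), and without letter I it was -0.66 ± 0.22 (adjusted p = 0.0485). At total-count scaling without letter I it missed the threshold (adjusted p = 0.127). The summed list, which is mostly miR-375, was lower in proximal jejunum in 10 of 10 letters.

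The miR-200 family (miR-141, miR-200a, miR-200b, miR-200c and miR-429) holds cells in the epithelial state by repressing ZEB1 and ZEB2, and miR-141 and miR-200a share a seed. miR-141 ran from 172 to 11432 CPM in duodenum (median 4825 CPM) and from 21.4 to 5112 CPM in proximal jejunum (median 1756 CPM). The log2 fold change was -1.52 ± 0.25 (adjusted p = 0.00354). miR-200a ran from 54.6 to 1566 CPM (median 1101 CPM) and from 3.32 to 946 CPM (median 577 CPM), with a log2 fold change of -1.28 ± 0.31 (adjusted p = 0.0369). Both were lower in 10 of 10 letters, and the ranges of both overlapped. Without letter I the values were -1.34 ± 0.22 for miR-141 (adjusted p = 0.00185) and -1.02 ± 0.23 for miR-200a (adjusted p = 0.0115); miR-200a missed the threshold when any of 8 other letters was left out.

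The other members of the epithelial list were also below 0 but did not pass. miR-200b gave a log2 fold change of -1.29 ± 0.44 (adjusted p = 0.104), miR-200c of -1.03 ± 0.29 (adjusted p = 0.0659) and miR-429 of -0.93 ± 0.33 (adjusted p = 0.122). In the miR-183 cluster, known from sensory cells and epithelia, miR-182 stood at -1.11 ± 0.40 (adjusted p = 0.123) and miR-183 at -0.77 ± 0.23 (adjusted p = 0.0691). In all, 2 of 8 tested members fell, against 3.4% of all miRNAs, and none rose. The median of the 8 was -1.07 against 0.01 over all miRNAs. Without letter I 5 of 8 fell, among them miR-200c (-0.95, adjusted p = 0.0421), miR-182 (-0.76, adjusted p = 0.0396) and miR-183 (-0.56, adjusted p = 0.0461), against 9.7% of all miRNAs in that fit. The count was 4 with letter B left out as well, and 2, miR-141 and miR-200a, at total-count scaling without letter I. The summed list, which holds miR-141 and miR-200a, was lower in proximal jejunum in 10 of 10 letters.

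Enterocyte miRNAs, which absorptive cells hold at high levels, gave no call. miR-192, which is grouped here with miR-194 and miR-215, ran from 43960 to 204141 CPM in duodenum (median 123893 CPM). In proximal jejunum it ran from 2409 to 153687 CPM (median 126435 CPM). None of the 3 passed. miR-192 gave a log2 fold change of -0.37 ± 0.52 (adjusted p = 0.65) with letter I and of 0.02 (adjusted p = 0.95) without it. All 3 were below 0 with letter I, and without it 1 stayed below 0, miR-215. The median of miR-215 was 29175 CPM in duodenum and 23784 CPM in proximal jejunum. The ratio of the miR-200 family to the 3 enterocyte miRNAs was lower in proximal jejunum in 9 of 10 letters, with letter I the exception. This ratio was not tested.

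miR-148a, abundant in liver and digestive tissue, was the most abundant of the miRNAs that fell. It ran from 22419 to 88690 CPM in duodenum (median 45186 CPM) and from 7968 to 27387 CPM in proximal jejunum (median 15984 CPM). The highest duodenum value was that of letter I, the library with the high miR-122. The log2 fold change was -1.49 ± 0.26 (adjusted p = 0.00486), lower in 10 of 10 letters, and -1.26 ± 0.23 without letter I (adjusted p = 0.0032). With total-count scaling it just missed the threshold (adjusted p = 0.0529). Its seed relative miR-148b stayed at -0.16 without passing, and miR-152, which lies within COPZ2, had -0.39 ± 0.11 (adjusted p = 0.0568) and, without letter I, -0.35 (adjusted p = 0.0325; 0.069 with letter B left out as well).

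**Figure D3:**
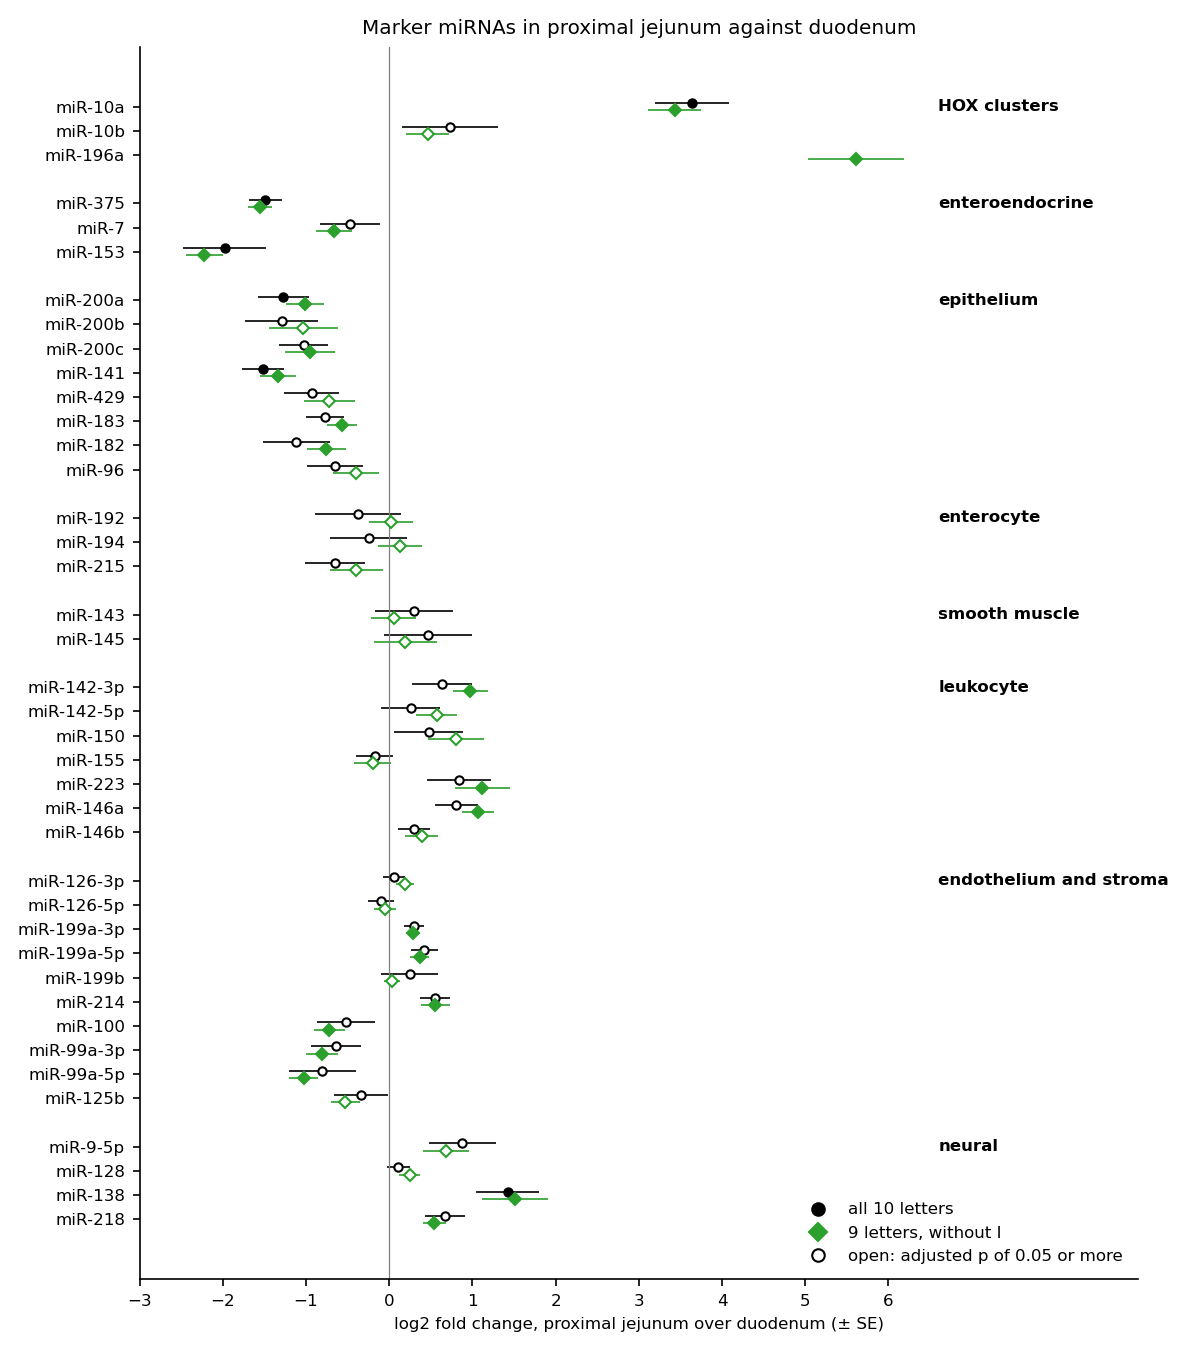
Log2 fold changes (proximal jejunum over duodenum, ± SE) of tested members of 8 marker lists, with black circles for all 10 letters, green diamonds for the 9 letters without I, and open symbols where the adjusted p was 0.05 or more. All 8 epithelial members lie below 0 in both fits, and miR-196a has no black circle because it was filtered out with all letters.

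miR-181a and miR-181b, known for setting how strongly T cells respond to antigen, rose together. miR-181a ran from 3573 to 7037 CPM in duodenum (median 4532 CPM) and from 4046 to 15480 CPM in proximal jejunum (median 8421 CPM), a log2 fold change of 0.83 ± 0.16 (adjusted p = 0.00704). miR-181b ran from 181 to 285 CPM (median 225 CPM) and from 229 to 840 CPM (median 397 CPM), a log2 fold change of 0.84 ± 0.17 (adjusted p = 0.0119). Both were higher in 9 of 10 letters. The groups overlapped for both; without letter I those of miR-181b did not, at most 285 CPM in duodenum against at least 296 CPM. Without letter I the log2 fold changes were 0.95 (adjusted p = 0.00145) and 0.97 (adjusted p = 0.0032). miR-181b missed the threshold without letter D (adjusted p = 0.0556) or J (adjusted p = 0.0615). With total-count scaling both had an adjusted p of 0.135.

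The gene table places a copy of miR-181a beside a copy of miR-181b at each of their sites. The miR-181 list has 4 members, of which these 2 passed, against 2.13% of all miRNAs higher, and none fell. Its summed level, mostly miR-181a, was higher in jejunum in 10 of 10 letters.

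miR-132, which in neurons is induced by CREB and in blood cells by inflammatory signals, ran from 4.61 to 39.0 CPM in duodenum (median 25.7 CPM). In proximal jejunum it ran from 9.34 to 114 CPM (median 61.1 CPM). The lowest value of each region was that of letter I. The log2 fold change was 1.28 ± 0.21 (adjusted p = 0.00354), higher in 10 of 10 letters, or in 9 of 10 when scaled to total counts, and 1.33 without letter I (adjusted p = 0.00145). miR-212, its cluster mate, was below the filter, with a median of 1.5 CPM in duodenum and 4.44 CPM in proximal jejunum; without the filter its log2 fold change was 1.54 ± 0.38 (adjusted p = 0.0298).

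miR-138, a brain miRNA that limits the size of dendritic spines, ran from 1.97 to 34.0 CPM in duodenum (median 19.7 CPM) and from 3.32 to 484 CPM in proximal jejunum (median 38.0 CPM). The highest value was that of letter G, whose jejunum library also had the highest summed neural list, 950.1 CPM against a jejunum median of 274 CPM. The log2 fold change was 1.42 ± 0.38 (adjusted p = 0.0451), higher in 10 of 10 letters, or in 8 of 10 when scaled to total counts. It passed in 3 of the 10 fits that left out a letter, so this call is weak. Of 4 tested neural miRNAs it was the 1 that passed, against 2.13% of all miRNAs higher. miR-218 had 0.67 (adjusted p = 0.12) and miR-9-5p 0.88 (adjusted p = 0.173). The summed neural list, which holds miR-138, was higher in jejunum in 10 of 10 letters.

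miR-224 and miR-3431 lie with miR-452 inside the GABRE gene in the gene table, and both fell. miR-224 ran from 11.5 to 109 CPM in duodenum (median 35.9 CPM) and from 8.03 to 35.3 CPM in proximal jejunum (median 21.7 CPM), a log2 fold change of -0.86 ± 0.22 (adjusted p = 0.0369). miR-3431, which has no role given here and was named after its values were seen, ran from 10.9 to 37.2 CPM (median 27.6 CPM) and from 5.38 to 22.0 CPM (median 9.42 CPM), a log2 fold change of -1.29 ± 0.33 (adjusted p = 0.0369). They were lower in 9 and in 10 of 10 letters, and the ranges overlapped for both. miR-452 did not pass, at -0.70 ± 0.28 (adjusted p = 0.149). The calls of miR-224 and miR-3431 were kept in 3 and 4 of the 10 fits that left out a letter. Without letter I the log2 fold changes were -0.90 (adjusted p = 0.0121) and -1.38 (adjusted p = 0.0111).

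The DLK1-DIO3 cluster is an imprinted region with a long run of miRNAs made from the maternal copy. Of 50 names 13 were tested, and 1 fell, miR-369-3p, against 3.4% of all miRNAs. It ran from 12.1 to 28.8 CPM in duodenum (median 15.1 CPM) and from 4.39 to 19.6 CPM in proximal jejunum (median 8.69 CPM). The log2 fold change was -0.82 ± 0.21 (adjusted p = 0.0369), lower in 10 of 10 letters, and 2 of 10 fits that left out a letter kept the call. Without letter I the log2 fold change was -0.89 (adjusted p = 0.00783). The list median was -0.30, with 12 of the 13 below 0. Without letter I 4 fell, among them miR-127 (-0.52, adjusted p = 0.0374) and miR-411a (-0.81, adjusted p = 0.0189). This count became 2 with letter B left out as well, and 2 at total-count scaling without letter I, and miR-127 missed the threshold in both (adjusted p = 0.0642 and 0.106). The jejunum library of letter I had the highest summed level, 16066 CPM against a jejunum median of 2938 CPM.

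Leukocyte miRNAs were called in part once letter I was left out. With it 0 of 7 passed, with a median of 0.47, and without it 3 of 7 rose, with a median of 0.80, against 12.2% of all miRNAs in that fit. With letter B left out as well 2 of 7 rose, and miR-223 missed the threshold (adjusted p = 0.0643). miR-146a, a brake on NF-kB signalling, ran from 461 to 2132 CPM in duodenum (median 1113 CPM) and from 589 to 3157 CPM in proximal jejunum (median 1970 CPM). Its log2 fold change was 0.81 ± 0.26 (adjusted p = 0.0994) with letter I and 1.06 ± 0.19 (adjusted p = 0.0032) without it. For miR-142-3p, found across blood cell types, it was 0.64 ± 0.36 (adjusted p = 0.265) and 0.97 ± 0.21 (adjusted p = 0.0098). For the myeloid miR-223 it was 0.84 ± 0.39 (adjusted p = 0.176) and 1.12 ± 0.33 (adjusted p = 0.0318). miR-155, induced in activated lymphocytes and macrophages, did not pass either way, at -0.20 without letter I (adjusted p = 0.542). The summed leukocyte list had a median of 7156 CPM in duodenum and 9270 CPM in proximal jejunum, was higher in jejunum in 6 letters and lower in 4, and in the jejunum library of letter I it was 1314 CPM. What part the cell makeup of these biopsies has in the rise of miR-181a and miR-181b was not tested.

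In stromal and endothelial miRNAs the direction was mixed. Of 10 tested members 0 passed with letter I, and without it 3 rose and 3 fell, against 12.2% and 9.7% of all miRNAs in that fit. miR-99a-5p ran from 318 to 2398 CPM in duodenum (median 899 CPM) and from 144 to 15256 CPM in proximal jejunum (median 526 CPM), the top value being that of letter I. Without letter I its log2 fold change was -1.03 ± 0.17 (adjusted p = 0.00205), that of its relative miR-100 -0.72 ± 0.18 (adjusted p = 0.0186), and that of let-7c, which is encoded beside miR-99a, -0.54 (adjusted p = 0.031). miR-214 and miR-199a-5p, made from 1 transcript in mesenchymal cells, had log2 fold changes of 0.55 (adjusted p = 0.0419) and 0.37 (adjusted p = 0.0461) without letter I. The 3 rises, these among them, became 0 when letter B was left out as well, and 0 at total-count scaling without letter I, while the 3 falls stayed 3 in both. let-7c also missed the threshold in both (adjusted p = 0.0533 and 0.0679). miR-199a-3p and miR-199c have nearly the same counts and were taken as 1 signal.

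Other miRNAs past the threshold without letter I included 4 that were higher in proximal jejunum. miR-378c had 0.71 (adjusted p = 0.00578) and miR-218 0.54 (adjusted p = 0.0176). The p53-induced miR-34a had 0.65 (adjusted p = 0.0217; 0.0502 with letter B left out as well), and miR-1388-5p had 0.97 (adjusted p = 0.00748).

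Muscle, red cell and growth-related lists held no miRNA past the threshold. miR-143, which smooth muscle cells need to contract, ran from 61083 to 796760 CPM in duodenum (median 446434 CPM) and from 225997 to 1064050 CPM in proximal jejunum (median 399292 CPM). Its log2 fold change was 0.29 ± 0.47 (adjusted p = 0.69), and the summed pair was higher in 5 letters and lower in 5. In the main comparison 0 of 3 striated muscle, 0 of 2 erythroid, 0 of 11 miR-17-92, 0 of 10 let-7, 0 of 6 miR-30, 0 of 4 miR-29 and 0 of 9 miR-2284 family miRNAs passed. None of the 5 liver and pancreas names, among them miR-122, passed the low-count filter. Without the filter miR-122 gave a log2 fold change of 0.21 (adjusted p = 0.952).

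Each shedding status was also taken alone. Among the 5 non-shedder letters 32 of 244 miRNAs passed (13.1%), 18 higher and 14 lower, and 11 of these are among the 13. Without letter B, whose jejunum library held the high miR-196b, 12 of 242 passed (4.96%), and 5 of these are among the 13. Among the 5 super-shedder letters, which include letter I, 2 of 231 passed (0.866%), and 23 had an unadjusted p under 0.05. Without letter I, 4 of 236 passed in super-shedders (1.69%). Whether the region difference itself depended on status was tested as an interaction, in which 0 of 235 passed (0%) by edgeR and 5 had an unadjusted p under 0.05.

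The 3 smallest interaction p-values belonged to miR-33a, miR-141 and miR-200a, and none passed. miR-33a, which lies in the SREBF2 gene and represses cholesterol export, gave a log2 fold change of 0.98 ± 0.24 in non-shedders (adjusted p = 0.0277) and of -0.47 ± 0.31 in super-shedders (adjusted p = 0.605). The difference of -1.44 ± 0.34 had an adjusted p of 0.333, and without letter I it was -1.41 (adjusted p = 0.626). For miR-141 the log2 fold changes were -0.92 ± 0.13 and -2.15 ± 0.33, and the difference had an adjusted p of 0.399. For miR-200a they were -0.66 ± 0.12 and -1.99 ± 0.47, and the difference had an adjusted p of 0.962. Without letter I the difference went from -1.24 to -1.05 for miR-141 (adjusted p = 0.829). For miR-200a it went from -1.33 to -0.92 (adjusted p = 0.99).

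Set among all 6 regions, the duodenum had the lowest or the highest median for several of these miRNAs. The median of miR-10a was 1932 CPM in duodenum and 24803 CPM in proximal jejunum, against 28445 CPM in distal jejunum, 56850 CPM in cecum, 37571 CPM in spiral colon and 48377 CPM in descending colon. The median of miR-148a was 45186 CPM in duodenum and between 13560 and 18833 CPM in the other 5 regions. miR-153 had a median of 61.2 CPM in duodenum and of 11.8 to 27.5 CPM elsewhere. For miR-148a the medians of neighbouring regions from proximal jejunum onward lay within the range of both regions. miR-181a likewise had its lowest median in duodenum, 4532 CPM, with 7006 to 9518 CPM in the other regions.

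Not all the miRNAs kept the jejunum level further down the gut. The median of miR-196a went from 0.193 CPM in duodenum and 11.7 CPM in proximal jejunum to 27.4 CPM in distal jejunum and 292 CPM in cecum, then stood at 214 and 117 CPM in spiral and descending colon. That of miR-375 was 8238 CPM in duodenum, 2431 CPM in proximal jejunum and 2635 CPM in distal jejunum, then 4921 CPM in cecum, 8105 CPM in spiral colon and 5431 CPM in descending colon. Letter I had 1.09 CPM of miR-196a in cecum and 1.29 CPM in spiral colon, the lowest libraries of those regions. Other letters were also far below the median. In spiral colon letter C had 11.9 CPM and letter H 25.4 CPM of miR-196a. In descending colon letter G had 0 CPM, letter H 2.80 CPM and letter I 8.09 CPM. These levels over the 6 regions are a description and were not tested.

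**Figure D4:**
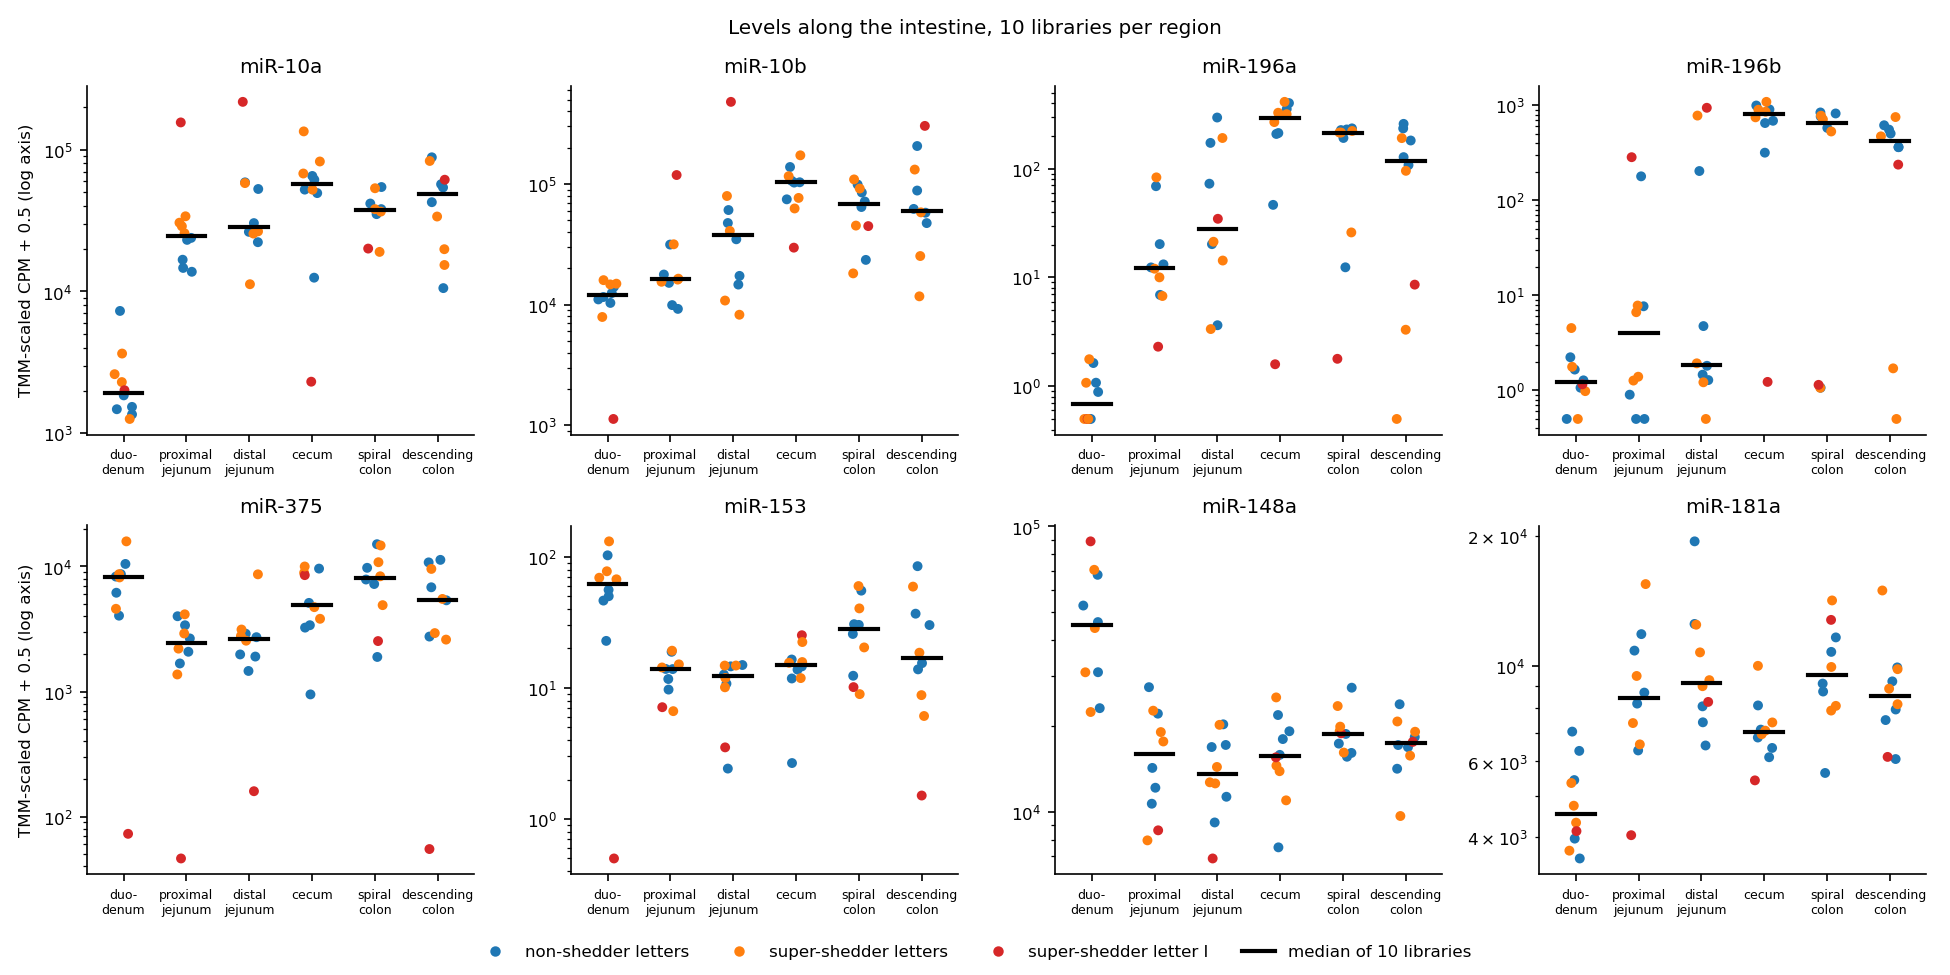
Levels of 8 miRNAs (TMM-scaled CPM plus an offset of 0.5, log axis) in all 60 libraries by region from duodenum to descending colon, coloured by shedding status with letter I in red and a bar at the median of each group of 10. For miR-10a the duodenum median is 1932 CPM, below the medians of the other 5 regions, which run from 24803 to 56850 CPM.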

How the data were processed

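The authors deposited 1 table of whole-number read counts, a row for each mature miRNA. Per the labels' protocols, RNA was isolated with a mirVana kit and libraries were made with TruSeq small RNA reagents. That protocol speaks of rectal tissue throughout; regions here follow the tissue labels. Bowtie and edgeR are named in the submitters' processing notes; not given in the sources used here were their versions, the build, the miRNA annotation and the rule for reads with several matches, so no coordinates are printed and counts of near-identical miRNAs are uncertain. The gene table of ARS-UCD2.0 served for names and neighbouring genes.

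From the counts, the 20 libraries were reduced by filterByExpr (minimum count 10), scaled by TMM and compared by the two-sided quasi-likelihood test of edgeR 4.0.16 in R 4.3.3, with the letter as a fixed block, Benjamini-Hochberg adjustment over all tested miRNAs and a threshold of 0.05. SE is the log2 fold change over the square root of F. CPM levels were scaled over all 60 libraries. Same-letter libraries correlated at 0.236 on average after removal of the means of each region and status, other letters at -0.0193. Of the 10 pairs 7 exceeded 0.1, and those of letters C, E and H were negative. In 3 of 10 the own letter was the best match. The pairing rests on the labels, which describe tissues taken from each animal. Alternatives were no block, a random block and limma-voom (limma 3.58.1), other scalings and filters, DESeq2 1.42.0, robust dispersion, all 60 libraries, each letter left out and each status alone. Chosen after seeing the data were the status fits without letters B or I and the scalings without letter I. Giving the fit without letter I beside the main results also followed from levels seen in these libraries. Floors are 3 counts, which cover counting error only.

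Named miRNAs were, of those that passed and averaged 50 CPM or more, the 12 largest changes per direction, the 5 smallest p-values per direction, and members and cluster mates of the lists described. The members and lists were chosen with earlier results of these data known.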

Additional observations from a re-analysis of the deposited data

Results flagged for a closer look

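Of 58 groups of 10 libraries examined, 27 had a highest or lowest library set far from the rest, 25 of them in letter I. For separate groups chance gives about 1 in 20. These groups are not separate, since several miRNAs are also part of list sums and the 25 share the libraries of letter I. The count therefore cannot be set against that rate. In the duodenum library of letter I, low values were 4.61 CPM for miR-132, 1.97 CPM for miR-138, 172 CPM for miR-141, 0 for miR-153, 54.6 CPM for miR-200a and 72.4 CPM for miR-375. By list its low sums were 1034 CPM for epithelium, 76.3 CPM for the endocrine list, 81.6 CPM for neural and 3140 CPM for HOX, and its liver and pancreas sum was high at 8705 CPM.

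In the jejunum library of letter I, the low values were 21.4 CPM for miR-141, 3.32 CPM for miR-200a and 45.8 CPM for miR-375. Its low sums were 2644 CPM for enterocyte, 84.4 CPM for epithelium, 74.7 CPM for the endocrine list, 1314 CPM for leukocyte and 4736 CPM for miR-17-92. It was high at 155601 CPM for miR-10a, and by list at 1067790 CPM for smooth muscle, 2467 CPM for striated muscle, 110694 CPM for endothelium and stroma, 274620 CPM for HOX and 16066 CPM for DLK1-DIO3. All levels of this library are raised by the TMM adjustment, which multiplied its total by 0.557.

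Outside letter I, the duodenum library of letter H had a low enterocyte sum of 53786 CPM, and the jejunum library of letter G a high neural sum of 950.1 CPM. That library of letter G was not flagged for other lists, but apart from letter I it was the lowest jejunum library for epithelium and enterocyte. Its sums were 1456 CPM for epithelium against a jejunum median of 6972 CPM, and 42411 CPM for enterocyte against 163845 CPM. Without letter G the log2 fold change was -1.39 for miR-141 and -1.06 for miR-200a.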

How the results depend on the processing

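Against 13 miRNAs past the threshold, 7 passed without the replicate block (2.98%), 7 with total-count scaling, 43 with DESeq2 (18.3%) and 20 of 275 with all 60 libraries (7.27%). With each letter left out in turn, the count ran from 6 to 52. It was 38 without letters B and I (16.1%), 32 in non-shedders, 12 of 242 in non-shedders without letter B (4.96%), 2 in super-shedders and 4 in super-shedders without letter I. Without letter I it was 50 with RLE scaling (23 higher, 27 lower) and 38 with total-count scaling (26 higher, 12 lower). Of the 13, none reversed.

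The direction of miR-192 turned to 0.024 without letter I (-0.53 to 0.024 with 1 letter left out), 0.035 without B and I, 0.16 in super-shedders without I and 0.11 without I at total-count scaling. That of miR-194 turned to 0.13 without I (-0.38 to 0.13 with 1 letter left out), 0.14 without B and I, 0.11 in non-shedders, 0.19 in non-shedders without B, 0.15 in super-shedders without I, and without I to 0.11 with RLE and 0.23 with total-count scaling. miR-143 was at -0.16 in non-shedders. Without the replicate block miR-100 was at 0.40, miR-99a-5p at 0.35 and miR-125b at 0.27, and in super-shedders miR-125b was at 0.082. None of these passed in the main comparison. The cause was not tested. The interaction stayed at 0 calls in every alternative run.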
